A study of Mus musculus with 6 samples.

Results

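Described here are 60 genes of cell division, whose products build the mitotic spindle, tie chromosomes to it through the kinetochore, drive entry into and exit from mitosis, and cut the daughter cells apart. They were taken by gene symbol from a list written with earlier results of these data known, and 59 of the 60 were found among the 14327 genes of the expression table (the symbol Sgol1 was not matched). All 59 had a mean of at least 1 FPKM (fragments corrected for the length of the transcript and for the size of the library) over the 6 libraries and were tested, with 11596 genes tested in all.

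The RNA came from neurospheres, floating spheres of primary neural stem cells, which had been taken from mouse hippocampus at P0, the day of birth, and grown with B27, N2 and the mitogens EGF and bFGF. There were 3 libraries labelled cKO, a conditional knockout of Slc22a17, and 3 labelled WT, the wild type. Slc22a17 encodes a receptor for the iron-carrying protein lipocalin 2, and the series concerns its part in iron balance and in the making of neurons after birth. The Cre driver, the deleted part of the gene and whether libraries came from separate animals or cultures are not stated in the labels. The p-values therefore cover only how far these libraries spread, and that spread may be technical.

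Some facts of the whole series touch every direction given here. Slc22a17 itself had 164, 166 and 187 FPKM in the libraries labelled cKO, against 181, 169 and 204 FPKM in WT. The groups overlapped (log2 fold change -0.097, adjusted p = 0.707 in limma), so the total for the gene was not lower beyond the spread in the libraries labelled cKO. Such a total cannot show whether a part of the transcript was missing. The Y-linked genes Ddx3y and Eif2s3y together had 50.5, 43.8 and 51.2 FPKM in the libraries labelled cKO, against 0.10, 0.07 and 25.9 FPKM in WT, so that the Y-linked level moved with the group in all libraries but WT replicate 3. FPKM totals per library ran from 409565 to 424768. The 11 stem and progenitor markers summed to 3136 to 3421 FPKM in the libraries labelled cKO and 3415 to 3619 FPKM in WT with none of them under 1 FPKM in every library, and the 8 astrocyte markers to 5247 to 5589 FPKM in the libraries labelled cKO and 4214 to 5438 FPKM in WT. The 9 oligodendrocyte lineage markers summed to 1207 to 1469 FPKM in the libraries labelled cKO and 1255 to 1723 FPKM in WT. Neuronal markers summed to 78.2 to 92.6 FPKM in the libraries labelled cKO and 78.7 to 84.8 FPKM in WT, with 5 of 8 under 1 FPKM in every library. Microglial markers summed to 6.93 to 17.2 FPKM in the libraries labelled cKO and 12.6 to 13.9 FPKM in WT, and the endothelial markers in the table (3) to at most 0.96 FPKM in the libraries labelled cKO and 1.62 FPKM in WT. Single markers of these lists moved with the group at an unadjusted p under 0.05 in limma, none of them at an adjusted p under 0.05. Of all tested genes 55.5% had lower means, 7.82% were lower at an unadjusted p under 0.05 in limma and 4.44% were higher. Of the astrocyte markers 5 of 8 had means above WT in the libraries labelled cKO, 3 of them at that level: Aldoc at 132% of WT, Slc1a2 at 118% and S100b at 137%. Of the oligodendrocyte lineage markers 7 of 9 had lower means, 3 of them at that level: the myelin genes Mbp at 63.9% of WT, Mog at 64.00% and Mag at 64.9%. Of the stem and progenitor markers 7 of 11 had lower means, with Hes1, at 81.6% of WT, at that level, and the neuronal marker Tubb3, at 128%, was higher at it. The part of the Y-linked split and of these markers in the results was not tested beyond the fits named with them.

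Dividing cells make most of these transcripts late in the cycle, in G2 and mitosis, and destroy many of the proteins as they leave mitosis. Many of the promoters carry CCAAT boxes, which bind NF-Y, and a cell cycle homology region (CHR), which binds the MuvB complex together with B-Myb and Foxm1 when the genes are on. Resting neural stem cells largely switch these genes off, and for this reason they are widely used as markers of proliferation.

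Nearly the whole list was at lower levels in the libraries labelled cKO, although no member passed the test. Of the 59 genes 58 had lower means on the log2(FPKM + 1) scale in the libraries labelled cKO than in WT, as did 55.5% of all tested genes. The median member stood at 74.3% of its WT mean in FPKM. The median log2 fold change of the members was -0.39, against -0.015 over all tested genes, of which 2.30% were lower by at least the member median. Over all tested genes 0.0259% passed an adjusted p of 0.05 in limma, and 0 of the 59 members did, with adjusted p from 0.189 (Ncapg) to 0.949 (Pttg1). At an unadjusted p under 0.05 in limma 51 members were lower in the libraries labelled cKO, as were 7.82% of tested genes, and 0 were higher, as were 4.44%. For 36 members every library labelled cKO lay below every WT library, which held for 10.2% of tested genes.

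The members vary together from library to library, so these counts are not counts of independent genes. In RNA from whole cultures, fewer dividing cells and less mitotic RNA per dividing cell cannot be told apart. When the Y-linked share entered as covariate, the median was -0.41. In that fit 2 members (3.39%) were lower at an unadjusted p under 0.05 in limma, a share near the 2.38% of all tested genes. Without the covariate 7.82% of all tested genes were lower at it. The Y-linked share moved with the group in all libraries but WT replicate 3, so this fit can hardly tell it from the group. Against WT replicate 3 alone, the WT library with Y-linked transcripts, the median was -0.34, and 14 members (23.7%) were lower at an unadjusted p under 0.05, as were 2.32% of all tested genes.

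**Figure D1:**
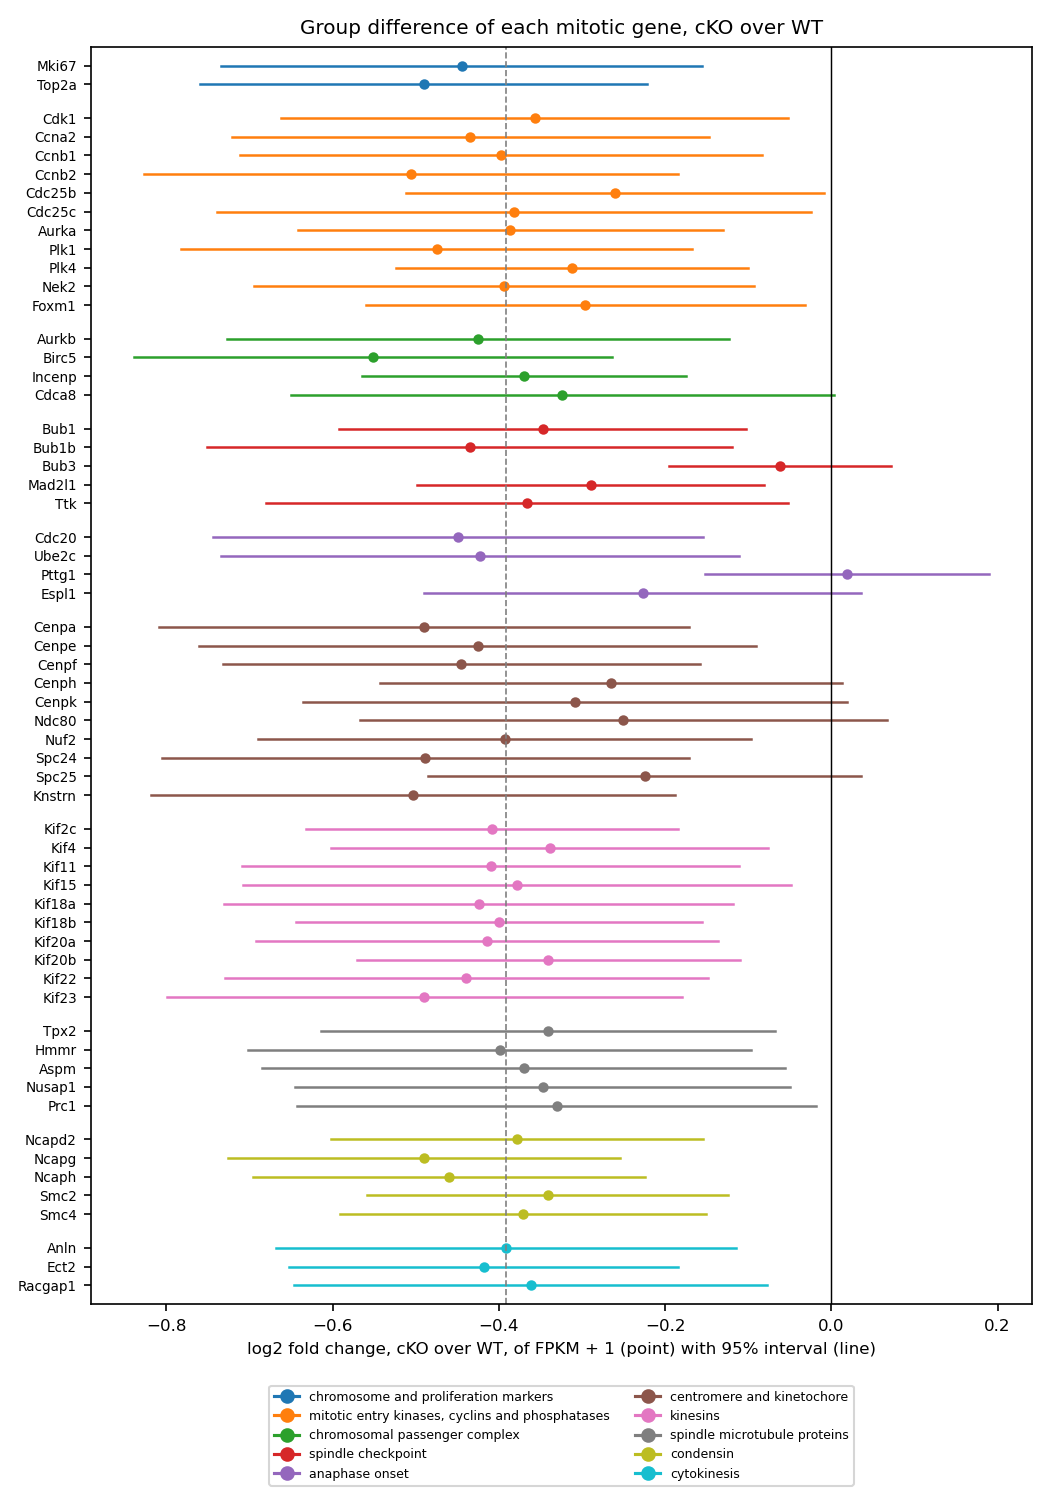
Each point is the log2 fold change of FPKM + 1 of 1 gene, libraries labelled cKO over WT, with its 95% interval from limma as a line and its role as colour (n = 3 libraries each). The intervals of 51 genes lie below 0, and Bub3 and Pttg1 stand near 0, apart from the member median of -0.39.

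The libraries of 1 group also differed from each other. Relative to the WT mean on the log2(FPKM + 1) scale, the median member stood at -0.43, -0.57 and -0.16 in cKO replicates 1, 2 and 3, against -0.12, 0.16 and -0.042 in WT replicates 1, 2 and 3. cKO replicate 2 was the lowest of the 6 libraries for 54 of the 59 members (91.5%, against 21% of all tested genes), and WT replicate 2 was the highest for 53 (89.8%, against 26.3%). cKO replicate 3 lay nearest to WT. It was below WT replicate 1 for 40 of 59 members, with a median difference of -0.052, while cKO replicate 1 was below WT replicate 1 for 59 and cKO replicate 2 for 58. Within the libraries labelled cKO, replicate 1 was below replicate 3 for 59 members, with a median difference of -0.26. Within WT, replicate 1 was below replicate 2 for 56, with a median difference of -0.28.

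Single libraries moved the counts. Without cKO replicate 3 the groups were apart for 57 members, as they were for 16.9% of all tested genes. The exceptions were Pttg1 and Cenph, in which cKO replicate 1 and WT replicate 3 tied at 6.01 FPKM. Leaving out a library can only raise this count. Without cKO replicate 2 the number lower at an unadjusted p under 0.05 was 33 (55.9%, against 7.24% of all tested genes). With libraries weighted by how well they fitted, the median was -0.25.

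**Figure D2:**
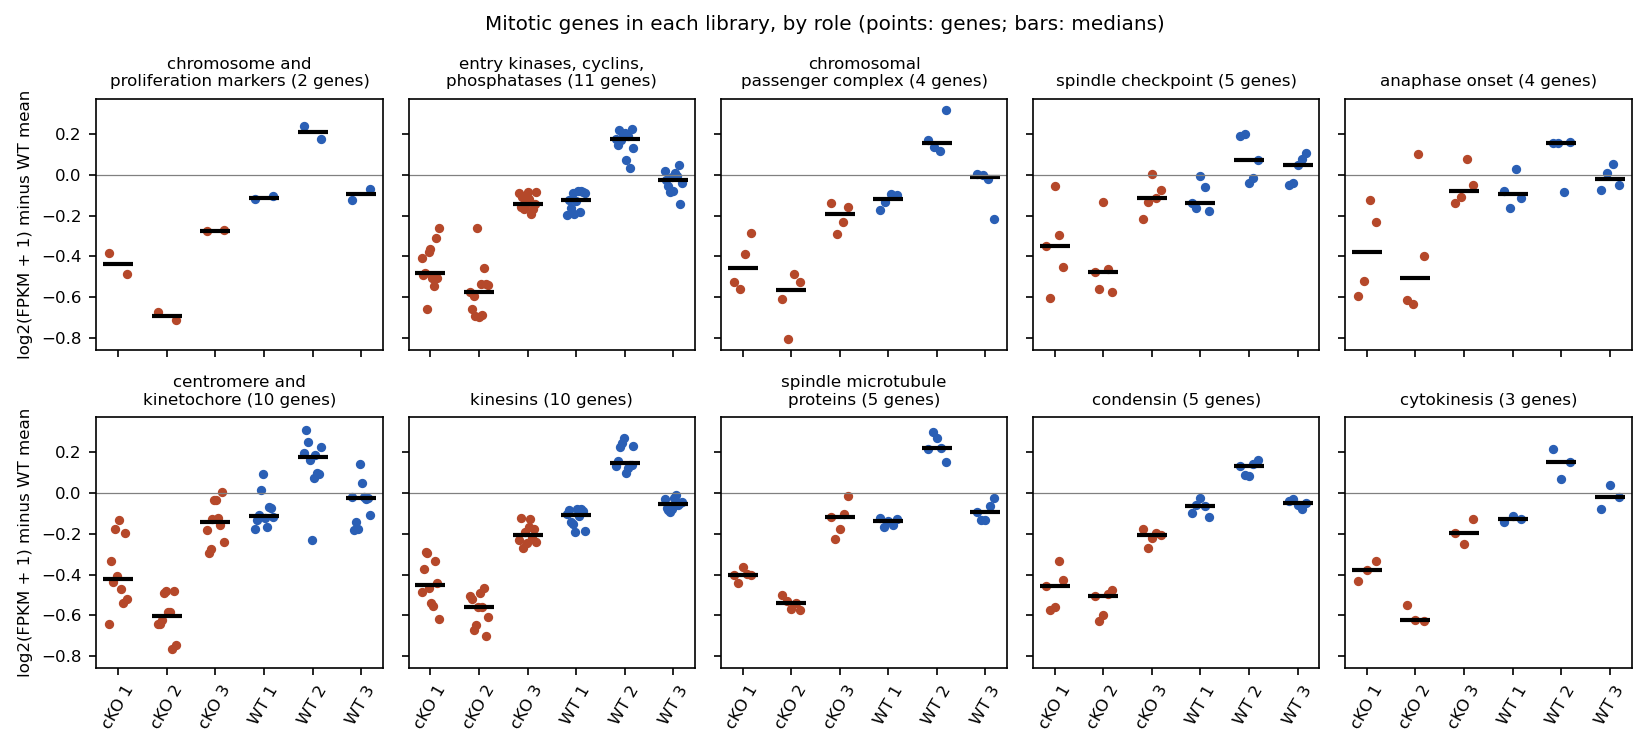
Each panel holds the genes of 1 role, each point is 1 gene in 1 library as log2(FPKM + 1) minus its WT mean, and bars are medians over the genes of the panel. Libraries labelled cKO are on the left of each panel and WT on the right. cKO replicate 3 lies nearest to WT, and over all 59 genes the medians of the libraries labelled cKO are -0.43, -0.57 and -0.16.

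Promoter letters are given because these genes are known to share a control late in the cycle. RefSeq windows of GRCm38.p6, running from 250 bases before to 50 after a transcript start, were found for 50 members, with 55 windows in all. The CCAAT box, searched as CCAAT on both strands, was in 41 of the 55 windows (74.5%), against 37.4% of all 32851 windows in the reference table. The CHR, searched as TTTGAA on both strands, was in 37 (67.3%), against 17.9% of all windows. Its variant TTTAAA was in 11 (20%), against 13.2%. None of the 3 motifs contains another. In all 32 windows (58.2%) held both CCAAT and TTTGAA, against 6.95% of all windows. TTTGAA lay in the last 100 bases of 33 windows (60%), against 4.94% of all windows. These are matches of letters and say nothing of binding.

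The group difference was also read with and without these letters. The median log2 fold change was -0.40 for the 34 members with TTTGAA and -0.37 for the 16 without, and it was -0.40 for the 36 members with CCAAT and -0.38 for the 14 without.

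Windows follow for 4 members of low p in their role (the cyclin Ccnb2, the passenger protein Birc5, the condensin subunit Ncapg and the cytokinesis regulator Ect2). They also follow for Bub3 and Pttg1, the members whose means differed least between the groups. Each is written from 5′ to 3′ on the strand of its gene, and capitals mark the 3 motifs on either strand. The window of Ccnb2 is chr9:70421505-70421804 on the minus strand. The window of Birc5 is chr11:117848987-117849286 on the plus strand. The window of Ncapg is chr5:45669675-45669974 on the plus strand. The window of Ect2 is chr3:27153829-27154128 on the minus strand, 1 of 2 windows of the gene. The window of Bub3 is chr7:131560120-131560419 on the plus strand, 1 of 2 windows of the gene. The window of Pttg1 is chr11:43425932-43426231 on the minus strand.
Ccnb2: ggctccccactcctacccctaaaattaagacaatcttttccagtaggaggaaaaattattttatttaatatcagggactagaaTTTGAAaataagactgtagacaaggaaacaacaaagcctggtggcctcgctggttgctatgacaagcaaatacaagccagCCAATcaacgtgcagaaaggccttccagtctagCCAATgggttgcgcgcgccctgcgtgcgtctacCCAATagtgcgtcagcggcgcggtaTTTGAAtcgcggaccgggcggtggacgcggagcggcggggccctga
Birc5: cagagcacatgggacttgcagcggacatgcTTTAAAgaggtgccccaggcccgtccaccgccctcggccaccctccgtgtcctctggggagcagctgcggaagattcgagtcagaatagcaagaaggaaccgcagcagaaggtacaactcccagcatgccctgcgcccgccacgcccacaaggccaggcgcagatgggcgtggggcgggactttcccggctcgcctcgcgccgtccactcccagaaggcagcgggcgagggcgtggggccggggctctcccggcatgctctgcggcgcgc
Ncapg: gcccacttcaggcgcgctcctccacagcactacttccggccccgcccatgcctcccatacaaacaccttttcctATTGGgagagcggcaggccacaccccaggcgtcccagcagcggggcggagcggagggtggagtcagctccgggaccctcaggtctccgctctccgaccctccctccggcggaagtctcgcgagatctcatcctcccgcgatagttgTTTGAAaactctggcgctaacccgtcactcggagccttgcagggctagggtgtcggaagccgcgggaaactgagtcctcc
Ect2: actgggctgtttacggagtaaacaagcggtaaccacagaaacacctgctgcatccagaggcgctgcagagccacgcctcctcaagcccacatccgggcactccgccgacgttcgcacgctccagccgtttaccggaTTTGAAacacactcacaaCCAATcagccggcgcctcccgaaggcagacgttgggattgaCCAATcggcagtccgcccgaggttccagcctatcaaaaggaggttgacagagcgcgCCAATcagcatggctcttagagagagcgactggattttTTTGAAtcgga
Bub3: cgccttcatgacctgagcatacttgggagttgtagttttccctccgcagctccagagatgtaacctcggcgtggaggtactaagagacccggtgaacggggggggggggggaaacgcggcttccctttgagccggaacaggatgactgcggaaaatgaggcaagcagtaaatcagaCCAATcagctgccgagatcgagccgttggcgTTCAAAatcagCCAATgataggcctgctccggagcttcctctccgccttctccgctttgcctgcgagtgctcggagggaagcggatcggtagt
Pttg1: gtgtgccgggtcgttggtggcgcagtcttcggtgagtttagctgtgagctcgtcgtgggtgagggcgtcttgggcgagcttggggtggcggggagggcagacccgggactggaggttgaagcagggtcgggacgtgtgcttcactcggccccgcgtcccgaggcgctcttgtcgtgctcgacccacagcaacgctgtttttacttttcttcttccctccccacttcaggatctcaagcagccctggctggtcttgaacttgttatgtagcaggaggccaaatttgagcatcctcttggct

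The Ccnb2 window holds CCAAT 87, 54 and 21 bases before the start and TTTGAA 167 bases before it and from base 5 after it. The Ncapg window holds CCAAT on the opposite strand 176 bases before the start and TTTGAA 30 bases before it. The Ect2 window has 3 CCAAT and 2 TTTGAA, and that of Birc5 has only TTTAAA, 220 bases before the start. Bub3 carries the motifs too, with CCAAT 74 and 32 bases before the start and TTTGAA on the opposite strand 43 bases before it. The Pttg1 window has none of the 3, and it lies inside the annotated gene span (chr11:43420244-43427463), so other starts of the gene were not read. The Ect2 window shown likewise lies inside its annotated gene span (chr3:27097222-27154253), and the other window of that gene is not shown.

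Both chromosome and proliferation markers had separated groups. In what follows, values of a group are those of replicates 1, 2 and 3. Over all tested genes, 7.82% were lower at an unadjusted p under 0.05 in limma. Every library labelled cKO lay below every WT library for 10.2%. The counts in each role stand against these shares. Mki67 (identifier 17345, chr7:135689784-135716450, GRCm38), which coats mitotic chromosomes and is the standard stain for dividing cells, had 21.96, 17.8 and 23.7 FPKM in the libraries labelled cKO, against 26.6, 34.5 and 26.5 FPKM in WT. Every library labelled cKO lay below every WT library. The means were 21.2 ± 3.03 FPKM in the libraries labelled cKO and 29.2 ± 4.55 FPKM in WT (SD, n = 3 each), and the log2 fold change was -0.44 (SE 0.127, adjusted p = 0.242 in limma). Top2a, the topoisomerase that untangles sister chromatids, had 43.9, 37.3 and 51.1 FPKM in the libraries labelled cKO, against 57.4, 69.9 and 58.9 FPKM in WT. Its groups were apart as well, with a log2 fold change of -0.49.

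**Figure D3:**
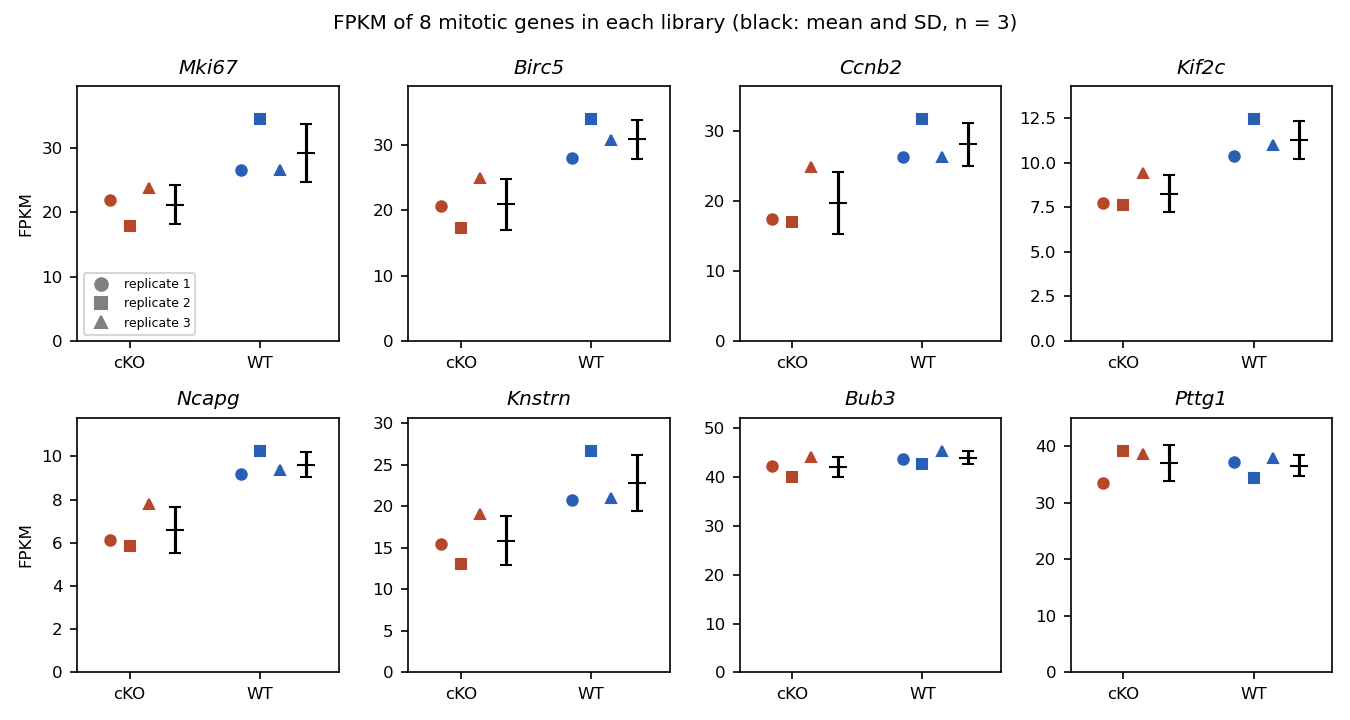
FPKM of 8 mitotic genes is shown for each library, with the libraries labelled cKO on the left of each panel, WT on the right, and black bars for mean and SD (n = 3 each). In Bub3 and Pttg1 the groups overlap, with means of 42.05 ± 2.10 FPKM in the libraries labelled cKO and 43.9 ± 1.33 FPKM in WT for Bub3 and 37.03 ± 3.16 FPKM in the libraries labelled cKO and 36.5 ± 1.87 FPKM in WT for Pttg1.

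The genes of mitotic entry comprise the kinase Cdk1 with its cyclins, the Cdc25 phosphatases that activate it, the Polo, Aurora and Nek kinases of the centrosome and spindle, and the transcription factor Foxm1. In the libraries labelled cKO all 11 means were lower, all 11 at an unadjusted p under 0.05, and 5 had separated groups, with a median log2 fold change of -0.39. Ccnb2, a B-type cyclin that activates Cdk1, had 17.4, 16.98 and 24.9 FPKM in the libraries labelled cKO, against 26.4, 31.8 and 26.4 FPKM in WT. Plk1, the Polo kinase that matures centrosomes and promotes mitotic entry, had 19.9, 17.9 and 25.6 FPKM in the libraries labelled cKO, against 25.8, 33.7 and 29.2 FPKM in WT. Ccna2, the cyclin of S phase and G2, had 25.2, 22.4 and 32.1 FPKM in the libraries labelled cKO, against 32.8, 39.9 and 35.2 FPKM in WT. In all 3 genes the groups were apart, with cKO replicate 3 just under the lowest WT library. Their log2 fold changes were -0.51, -0.47 and -0.43, with adjusted p of 0.238, 0.242 and 0.244 in limma.

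The groups of Aurka, the kinase of the spindle poles, and of Plk4, which starts centriole duplication, were also apart, at 75.6% and 77.8% of the WT mean. The other 6 overlapped through cKO replicate 3, which lay at or above the lowest WT library. Cdk1 averaged 18.2 ± 3.34 FPKM in the libraries labelled cKO and 23.4 ± 3.14 FPKM in WT. Ccnb1, the main mitotic cyclin, averaged 30.3 ± 5.72 FPKM in the libraries labelled cKO and 40.00 ± 5.76 FPKM in WT. Foxm1, an activator of many genes of this list, averaged 14.2 ± 2.36 FPKM in the libraries labelled cKO and 17.5 ± 1.54 FPKM in WT. Nek2, which splits centrosomes, stood at 73.8% of WT and Cdc25c at 74.03%, and Cdc25b, at 81.3%, had the smallest difference of the 11.

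The chromosomal passenger complex corrects faulty attachments of chromosomes and later guides cytokinesis. Its 4 members had lower means, 3 at an unadjusted p under 0.05, and 2 had separated groups. Birc5 (survivin, identifier 11799, chr11:117849237-117855743, GRCm38), which brings the complex to chromosomes, had 20.6, 17.2 and 24.96 FPKM in the libraries labelled cKO, against 27.96, 33.9 and 30.7 FPKM in WT. The means were 20.9 ± 3.90 FPKM in the libraries labelled cKO and 30.9 ± 2.97 FPKM in WT (SD, n = 3 each). This was the lowest fold change of the 59 genes, -0.55 on the log2 scale (SE 0.126, 95% interval -0.84 to -0.26, adjusted p = 0.209 in limma). Incenp, the scaffold of the complex, had 15.8, 14.7 and 17.8 FPKM in the libraries labelled cKO, against 19.6, 22.9 and 20.7 FPKM in WT. Its groups were apart, with a log2 fold change of -0.37. In the kinase Aurkb, at 73.6% of WT, and in Cdca8 (borealin), at 78.6%, cKO replicate 3 lay above the lowest WT library. The estimate for Cdca8 was 0.019 when the Y-linked share entered as covariate, against -0.32 otherwise.

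The spindle checkpoint holds back anaphase until all chromosomes are attached. Its 5 members had lower means, 4 at an unadjusted p under 0.05, and 2 had separated groups. Bub1, a checkpoint kinase at kinetochores, had 5.62, 5.06 and 6.26 FPKM in the libraries labelled cKO, against 6.65, 8.63 and 7.14 FPKM in WT. Mad2l1 (Mad2), which inhibits Cdc20, had 15.3, 13.6 and 17.5 FPKM in the libraries labelled cKO, against 18.2, 18.8 and 20.1 FPKM in WT. Bub1b (BubR1), which joins Mad2 in that inhibition, had 11.1, 11.5 and 15.8 FPKM in the libraries labelled cKO, against 15.5, 20.2 and 16.9 FPKM in WT. The groups of Bub1 and Mad2l1 were apart, while in Bub1b cKO replicate 3 lay above WT replicate 1. Ttk (Mps1), the kinase that starts the checkpoint signal, stood at 74.9% of WT, and there too cKO replicate 3 lay above WT replicate 1.

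Bub3, the adaptor that carries Bub1 and Bub1b to kinetochores, differed little between the groups and was singled out after its values were seen. It had 42.2, 39.9 and 44.1 FPKM in the libraries labelled cKO, against 43.6, 42.7 and 45.3 FPKM in WT. The groups overlapped, and the mean was 95.8% of WT. The log2 fold change was -0.061, and its 95% interval of -0.19 to 0.072 does not reach the member median of -0.39 (adjusted p = 0.726 in limma).

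At anaphase onset the ubiquitin ligase APC/C removes securin, which frees separase to open the rings that hold sister chromatids. Lower means were seen for 3 of the 4 members measured, 2 at an unadjusted p under 0.05. Cdc20, an activator of APC/C, had 23.5, 23.2 and 32.5 FPKM in the libraries labelled cKO, against 34.01, 40.1 and 34.02 FPKM in WT. Ube2c, its ubiquitin-conjugating enzyme and the member with the highest WT mean, had 45.9, 42.3 and 61.4 FPKM in the libraries labelled cKO, against 59.1, 74.01 and 66.7 FPKM in WT. Espl1, which encodes separase, had 3.83, 3.30 and 4.48 FPKM in the libraries labelled cKO, against 4.24, 5.35 and 4.48 FPKM in WT. The groups were apart in Cdc20, and in the other two cKO replicate 3 lay above WT replicate 1.

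Pttg1, which encodes securin, was the 1 member with a higher mean in the libraries labelled cKO. It had 33.4, 39.1 and 38.5 FPKM in the libraries labelled cKO, against 37.2, 34.4 and 37.9 FPKM in WT. Both the lowest and the highest of the 6 values were from libraries labelled cKO. The log2 fold change was 0.019, with a 95% interval of -0.15 to 0.19 (adjusted p = 0.949 in limma). Its sign turned without WT replicate 2 (-0.022), without cKO replicate 2 (-0.022) or without cKO replicate 3 (-0.011), against WT replicate 3 alone (-0.036) and when the Y-linked share entered as covariate (-0.058).

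Centromere and kinetochore genes had lower means for 10 of 10 members, 6 at an unadjusted p under 0.05, and 5 had separated groups, with a median log2 fold change of -0.41. Knstrn, an adaptor of kinetochores and the spindle, had 15.5, 13.1 and 19.03 FPKM in the libraries labelled cKO, against 20.8, 26.7 and 20.97 FPKM in WT. Cenpf, a large outer kinetochore protein, had 7.98, 6.89 and 9.04 FPKM in the libraries labelled cKO, against 10.3, 13.5 and 10.02 FPKM in WT. Spc24, a subunit of the Ndc80 complex, had 9.38, 7.89 and 12.5 FPKM in the libraries labelled cKO, against 13.4, 15.2 and 13.8 FPKM in WT. All 3 had separated groups, with cKO replicate 2 lowest and WT replicate 2 highest. Their log2 fold changes were -0.50, -0.44 and -0.49.

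The Ndc80 complex grips the ends of microtubules, and its 4 subunits stood at different shares of WT, without a test of the difference between them. Spc24 stood at 70.3% of its WT mean, Nuf2 at 75.6%, Ndc80 at 83.3% and Spc25 at 85.8%. Ndc80 averaged 7.08 ± 1.55 FPKM in the libraries labelled cKO and 8.50 ± 0.689 FPKM in WT, and its interval of -0.57 to 0.066 on the log2 scale includes 0. Spc25 averaged 24.05 ± 4.13 FPKM in the libraries labelled cKO and 28.03 ± 1.75 FPKM in WT, also with an interval that includes 0. Cenpa, the histone variant that marks centromeres, stood at 70.6% of WT and Cenpe, a kinetochore motor, at 70.4%, both with separated groups. Cenph, at 80.9%, and Cenpk, at 77.2%, belong to the inner kinetochore and had overlapping groups.

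Kinesins are motors that slide, sort or shorten microtubules. The groups were apart in 10 of 10 members, all 10 at an unadjusted p under 0.05. Log2 fold changes ran from -0.49 (Kif23) to -0.34 (Kif4), with a median of -0.41. Not all kinesins outside the members had separated groups. Groups overlapped in Kif14, at 73.4% of WT, and Kifc1, at 85.5%, and were apart in Kifc5b, at 71.4%. Kif2c, which shortens microtubules at faulty attachments, had 7.74, 7.62 and 9.45 FPKM in the libraries labelled cKO, against 10.4, 12.4 and 11.01 FPKM in WT. Kif18b, which acts on the ends of astral microtubules, had 6.21, 6.47 and 8.34 FPKM in the libraries labelled cKO, against 8.95, 10.2 and 9.33 FPKM in WT. Kif23, the motor of centralspindlin at the midzone, had 5.75, 5.80 and 7.78 FPKM in the libraries labelled cKO, against 8.10, 11.2 and 9.07 FPKM in WT. In each of them cKO replicate 3 was the library labelled cKO nearest to WT. Kif4, a chromosome-bound motor that also acts at the midzone, averaged 5.86 ± 0.962 FPKM in the libraries labelled cKO and 7.65 ± 0.834 FPKM in WT. Kif11 (Eg5), which pushes spindle poles apart, averaged 13.6 ± 2.17 FPKM in the libraries labelled cKO and 18.3 ± 2.73 FPKM in WT. Kif20a and Kif20b, which act in cytokinesis, stood at 74.3% and 73.9% of WT, Kif18a, which damps chromosome movements, at 70.3%, Kif22, which pushes chromosome arms outward, at 73.1%, and Kif15, which can stand in for Kif11, at 73.3%.

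Spindle microtubule proteins had lower means for 5 of 5 members, all at an unadjusted p under 0.05, and 2 had separated groups. Hmmr, which helps to organise spindle poles, had 11.5, 10.8 and 13.6 FPKM in the libraries labelled cKO, against 14.2, 19.9 and 14.5 FPKM in WT. Tpx2, which activates Aurka and nucleates microtubules near chromosomes, had 20.9, 19.5 and 25.7 FPKM in the libraries labelled cKO, against 25.7, 32.6 and 26.2 FPKM in WT. Aspm, a spindle pole protein whose loss causes microcephaly, had 5.85, 4.93 and 6.80 FPKM in the libraries labelled cKO, against 7.01, 9.63 and 7.03 FPKM in WT. In Hmmr and Aspm the groups were apart by a small gap, and in Tpx2 cKO replicate 3 lay just above WT replicate 1. Nusap1, a microtubule bundler, stood at 77.4% of WT and Prc1, which crosslinks the midzone, at 79.8%, both with overlapping groups.

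Condensin compacts chromosomes for mitosis. The groups were apart in 5 of 5 members, all at an unadjusted p under 0.05, with a median log2 fold change of -0.38. Ncapg (identifier 54392, chr5:45669891-45700547, GRCm38), a condensin I subunit, had 6.12, 5.86 and 7.80 FPKM in the libraries labelled cKO, against 9.17, 10.3 and 9.39 FPKM in WT. Ncaph, the condensin I subunit that bridges the ring, had 12.02, 11.7 and 15.5 FPKM in the libraries labelled cKO, against 17.9, 19.4 and 17.5 FPKM in WT. Ncapd2, the third subunit particular to condensin I, had 30.7, 29.6 and 37.4 FPKM in the libraries labelled cKO, against 39.6, 46.6 and 41.2 FPKM in WT. All values of the libraries labelled cKO lay below those of WT. Ncapg averaged 6.59 ± 1.05 FPKM in the libraries labelled cKO and 9.61 ± 0.576 FPKM in WT (SD, n = 3 each) and had the lowest p of the 59 genes (log2 fold change -0.49, SE 0.103, adjusted p = 0.189 in limma). The ATPases Smc2 and Smc4, which form the core of condensins I and II, stood at 77.7% and 76.4% of WT. Subunits particular to condensin II were not among the members. Groups overlapped in Ncapd3, at 91.8% of WT, and Ncapg2, at 82.5%, and were apart in Ncaph2, at 88.0%.

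Cytokinesis genes had lower means for 3 of 3 members, all at an unadjusted p under 0.05, and 2 had separated groups. Ect2, the exchange factor that activates RhoA at the cleavage plane, had 9.40, 7.76 and 10.3 FPKM in the libraries labelled cKO, against 11.5, 13.2 and 12.9 FPKM in WT. Anln (anillin), the scaffold of the contractile ring, had 6.30, 5.73 and 7.59 FPKM in the libraries labelled cKO, against 7.92, 10.4 and 8.33 FPKM in WT. Both had separated groups, with log2 fold changes of -0.42 and -0.39. Racgap1, the partner of Kif23 in centralspindlin, averaged 25.6 ± 4.54 FPKM in the libraries labelled cKO and 33.01 ± 3.37 FPKM in WT, and cKO replicate 3 lay just above WT replicate 1.

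Other genes of cell division were read from lists beside the 59. Their counts stand against all tested genes, of which 55.5% had lower means, 7.82% were lower at an unadjusted p under 0.05 and 4.44% were higher at it. Among 56 further mitotic genes of dividing cells 54 had means lower than in WT, 33 at an unadjusted p under 0.05 and 0 higher at it, with a median log2 fold change of -0.30. Troap, a spindle-associated protein, had 5.99, 4.92 and 5.95 FPKM in the libraries labelled cKO, against 7.71, 9.36 and 7.65 FPKM in WT. The groups were apart (adjusted p = 0.189 in limma), as they were in Kifc5b, a kinesin, at 71.4% of WT. Dsn1 and Zwint, both of the kinetochore, were the 2 with higher means, at 104% and 101% of WT.

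Mitotic machinery that resting cells also keep, such as APC/C, cohesin and tubulins, had a median log2 fold change of -0.056 over 59 genes, 41 with lower and 18 with higher means. At an unadjusted p under 0.05, 11 were lower, a larger share than the 7.82% of all tested genes, and 1 was higher. The alpha- and beta-tubulin genes of the list, 4 in number, were all among these 12 and all had separated groups. Tuba1c, an alpha-tubulin, had 13.1, 11.8 and 15.8 FPKM in the libraries labelled cKO, against 18.4, 18.7 and 20.2 FPKM in WT. Tubb4b, a beta-tubulin, had 292, 266 and 299 FPKM in the libraries labelled cKO, against 239, 238 and 264 FPKM in WT. The groups were apart in both, below WT in Tuba1c and above it in Tubb4b. Tuba1b, at 81.8% of WT, and Tubb5, at 84.6%, were below WT and were named after their values were seen. Tubulin genes are near-identical copies whose reads can be split between them. The cohesin subunits Smc1a and Rad21 stood at 87.00% and 84.5% of WT with separated groups. Groups overlapped in the cohesin subunits Smc3, at 98.4%, Stag1, at 88.3%, and Stag2, at 91.7%. Of APC/C subunits, Anapc16 stood at 109% and Cdc26 at 88.2% with separated groups, while groups overlapped in the others of the list. The other genes lower at an unadjusted p under 0.05 in limma were Zwilch, Nsl1, Pmf1, Haus4 and Haus5. Of these genes, all but Smc1a and Anapc16 were likewise named after their values were seen.

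Genes of DNA replication had lower means in 51 of 52, 25 at an unadjusted p under 0.05 and 0 higher at it, with a median log2 fold change of -0.24. Tk1, which makes thymidine nucleotide, had 16.2, 15.03 and 22.4 FPKM in the libraries labelled cKO, against 25.1, 26.6 and 24.9 FPKM in WT. Lig1, the ligase that joins Okazaki fragments, had 14.7, 13.3 and 16.9 FPKM in the libraries labelled cKO, against 19.3, 19.9 and 21.2 FPKM in WT. The groups were apart in both. Orc2, of the origin recognition complex, was the 1 with a higher mean, at 102% of WT. Of 27 tested G1 cyclins, CDK inhibitors and their partners 20 had lower means, 7 at an unadjusted p under 0.05 and 0 higher at it, with a median of -0.15. E2f1 and E2f2, activators of S phase genes, stood at 82.6% and 70.3% of WT with separated groups. Rbl2 and Cdkn2b, which restrain the cycle, stood at 106% and 103% with overlapping groups. Other genes that restrain it went either way. Rbl1, at 81.0%, and Cdkn1c, at 57.4% with a WT mean of only 1.72 FPKM, were lower with separated groups. Groups overlapped in Cdkn1a (88.8%), Cdkn1b (94.3%), Cdkn2c (87.3%), Cdkn2d (87.6%), Cdkn2a (103%) and Rb1 (101%). None of the genes in these 4 lists passed an adjusted p of 0.05 in limma.

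**Figure D4:**
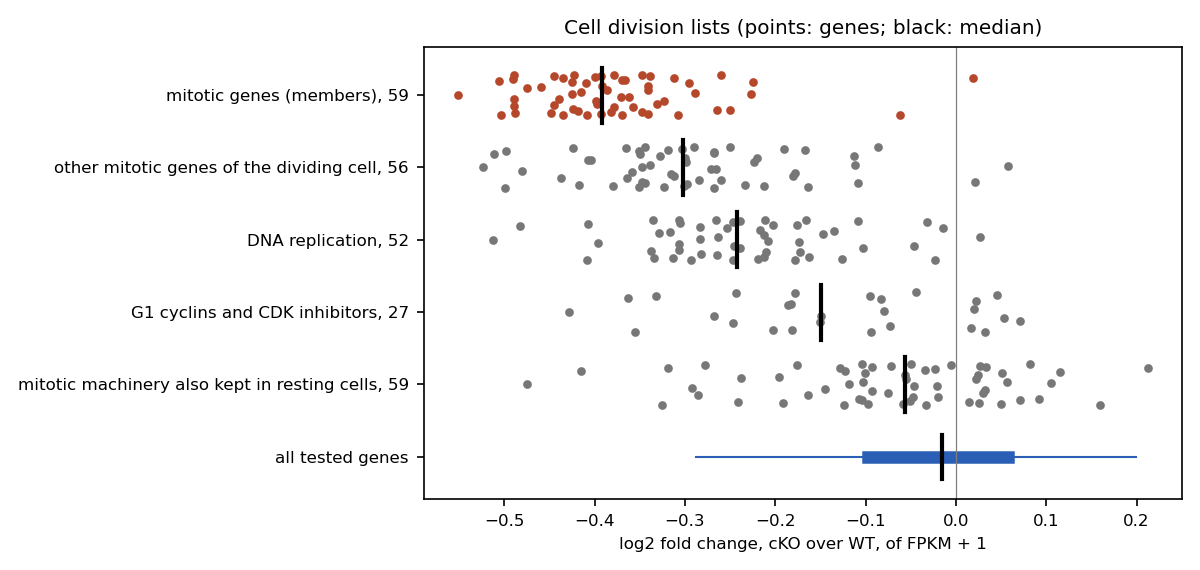
Points are the log2 fold changes of FPKM + 1 of single genes, libraries labelled cKO over WT, in each list of cell division genes, and black marks are medians. The median is -0.30 for further mitotic genes, -0.24 for DNA replication, -0.15 for the G1 list, -0.056 for machinery kept in resting cells and -0.015 over all tested genes.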

How the data were processed

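RNA sequencing of 6 neurosphere libraries (3 labelled cKO and 3 labelled WT) was used. The values the authors deposited are FPKM, 1 per gene in each library. The submitters' processing notes name Bowtie2 and GRCm38 (mm10) and no version. How fragments were counted or filtered, the sources used here do not state. All value columns were matched to a sample by name, and 0 were left unmatched.

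FPKM carry no depth. Steps worth 1 fragment in low values gave estimates of 16650000 to 17300000 fragments per library. Each was the depth, of a range tried, with the largest share of whole values. Even there only 44.1% to 53.9% of the values used were whole within 0.1 fragment. Chance gives 20% at a fixed depth, and its level for the best of many depths was not computed. Whole reads could not be recovered, and count models were left out. The spread between libraries sets the precision.

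Genes averaging at least 1 FPKM over the 6 libraries were analysed as log2(FPKM + 1), a scale that understates the change of low genes. The test was limma 3.58.1 under R 4.3.3, with an intensity trend and two-sided. Its p-values were adjusted by Benjamini-Hochberg over the 11596 genes tested, and 0.05 was the threshold. Alternatives were other pseudocounts, filters, scalings and variance models, a Y-linked covariate, weights for libraries, a block for the replicate number, WT replicate 3 alone as WT, and leaving out each library.

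The members, the other lists and the motifs were chosen with earlier results of these data known. Values in each library are printed for the 3 members of lowest p in each role (2 in roles of up to 4 listed members), for Mki67 and for any member with a higher mean in the libraries labelled cKO. Bub3 and further genes of other lists, outside this rule, were added after their values were seen. Of each other list the 2 genes of lowest p in each direction are named. Promoter sequences are RefSeq's, of GRCm38.p6, matched by gene identifier. Figures were drawn with matplotlib 3.10.9.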

Additional observations from a re-analysis of the deposited data

How the results depend on the processing

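No member passed an adjusted p of 0.05 in limma under any alternative run, and the lowest adjusted p of a member over them was 0.0617 (Ncapg, library weights). The median log2 fold change over members stayed below 0 in all of them, from -0.25 (library weights) to -0.49 (without cKO replicate 3). The number of members lower at an unadjusted p under 0.05, 51 as reported, was 2 when the Y-linked share entered as covariate, 14 with WT replicate 3 alone as WT, and 33 to 57 with 1 library left out, the lowest without cKO replicate 2. The number with every library labelled cKO below every WT library was 36 with all libraries, against 10.2% of all tested genes. With 1 library left out it was highest without cKO replicate 3, at 57, against 16.9% of all tested genes. Cdca8 turned to 0.019 with the Y-linked covariate. Pttg1 turned to -0.058 with that covariate, to -0.036 with WT replicate 3 alone as WT, and ranged from -0.022 to 0.090 with 1 library left out. With WT replicate 3 alone, that library is assumed to vary like the libraries labelled cKO. The cause was not tested, apart from the smaller number of libraries where 1 or more were left out. Same-numbered libraries had correlations of -0.043, 0.30 and 0.26 in their deviations, and libraries of different number from -0.40 to 0.17. With 3 libraries in each group these values cannot decide whether the replicate numbers pair the libraries. With the replicate block the median was -0.39, and 22 genes of all tested passed against 3 without it, none of them members. With library weights 129 genes passed, and without WT replicate 3 10 did. Depth is unknown, so counting error could not be separated from the spread between libraries.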
